A study of Homo sapiens with 12 samples.

Results

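The solute carriers outside the SLC25 family were followed in polysome-seq data from HEK293T cells depleted of PRRC2B, a protein that binds mRNA and acts in translation. The members were the gene names of the count table that consist of SLC, a family number, A and a member number, without the SLC25 family, and with at least 500 raw counts over the 12 libraries. Of 290 names of this form, 146 reached the minimum and 144 did not, 26 of the latter with 0 counts in all libraries, and the whole table held 59385 gene names. The members closest to the minimum were SLC17A7 with 507 counts, SLC9A2 with 517 and SLC37A2 with 618, and the names just outside were SLC9A9 with 474 and SLC6A16 and SLC16A5 with 472 each. All 146 members passed the filter on low counts used for the tests. The summed counts chose the members and are given as a description. SLC26A2 was in addition named beforehand for its change in translation, so its values are described without a test.

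HEK293T is a transformed line derived from human embryonic kidney. One line carried a doxycycline (Dox)-inducible short hairpin RNA against PRRC2B (shPRRC2B) and the other a non-silencing control shRNA (shCtrl), each a stable single clone selected with puromycin, and both were given Dox for 36 h. The shRNA and the clone therefore cannot be told apart. Total RNA and polysome-associated RNA, the latter from the pooled polysome fractions of a gradient, were sequenced after polyA enrichment in 3 biological replicates per line and fraction. The TE (translation efficiency) change below is the log2 difference between the lines in polysome RNA relative to total RNA, negative where that ratio was lower in shPRRC2B.

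Solute carriers are membrane proteins that move amino acids, sugars, ions, metals, lipids, vitamins and nucleotides across the plasma membrane and the membranes of organelles, by facilitated diffusion or coupled to an ion gradient. Families are numbered by sequence relation and most have a typical substrate, which was used here to place the members in classes. Their mRNAs are translated on the endoplasmic reticulum. Some carriers work as pairs, as the heavy chain SLC3A2 does with the light chains of the SLC7 family, and several amino acid carriers are textbook targets of the transcription factor ATF4, which is induced when amino acids are short.

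Of the members, 4 carry sites in the study's PAR-CLIP tables, which list where full-length PRRC2B or its fragment P2 was crosslinked to RNA. For each of the 3 members with sites wholly in coding sequence, 1 such site is shown as an example of the listed stretches. Sequences are from GRCh38, given on the strand of the gene from 5′ to 3′, with the longest run of only C and T or only A and G in capitals.
SLC3A2, full-length PRRC2B, chr11:62888472-62888571, plus strand, exon 9: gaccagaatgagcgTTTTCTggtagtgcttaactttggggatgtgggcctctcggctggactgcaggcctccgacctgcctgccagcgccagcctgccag
SLC16A1, full-length PRRC2B, chr1:112917800-112917899, minus strand, exon 4: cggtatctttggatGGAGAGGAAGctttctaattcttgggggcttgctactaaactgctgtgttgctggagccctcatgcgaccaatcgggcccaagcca
SLC35A4, fragment P2, chr5:140567785-140567884, plus strand, exon 3: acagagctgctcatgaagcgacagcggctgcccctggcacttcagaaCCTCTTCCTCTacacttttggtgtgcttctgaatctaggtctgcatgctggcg
Overlapping coding sites of fragment P2 at chr11:62888475-62888574 in SLC3A2 and chr5:140567835-140567934 in SLC35A4 are listed as well. A further SLC3A2 site crosses the stop codon at chr11:62888672-62888771, with 19 bases in the coding sequence and the rest in the 3′ UTR, and holds the pyrimidine run CCCTTCTCCTTTCCTTCCC. SLC16A1 has a further site at chr1:112956112-112956211, which overlaps its first exon outside the coding sequence, and the SLC38A6 site at chr14:61068107-61068206 lies in an intron and was listed for both proteins. SLC39A1, which also has a listed site, did not reach the minimum of 500 counts and is no member.

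Library totals lay between 9855734 and 20837542 counts. The members took between 0.730% and 0.753% of the counts in total RNA and between 0.271% and 0.327% in polysome RNA. PRRC2B was at 281 CPM (counts scaled to library size, after scaling by edgeR's TMM factors) in shCtrl total RNA and at 100.1 in shPRRC2B total RNA. All 7 markers of the HEK293T list were detected in each group. In total RNA of shCtrl and shPRRC2B, NEFM was at 285 and 96.3, NEFL at 175 and 87.3 and KRT8 at 90.0 and 20.6 CPM. VIM was higher in shPRRC2B, at 122 and 237 CPM. The remaining markers were higher there by less, with KRT18 at 35.91 and 47.77, CDH2 at 90.69 and 105.7 and PAX2 at 10.01 and 11.96 CPM. The tubule and collecting duct markers UMOD and AQP2 were at 0 counts, as were the renal carriers SLC22A6 and SLC22A8, the glomerular marker NPHS1 was at 91 counts over all libraries, with 0.0477 CPM in shCtrl and 1.17 CPM in shPRRC2B total RNA, and LRP2 was at 58.7 CPM in shCtrl and 27.0 CPM in shPRRC2B total RNA. Of the markers of other cell types, HBB was at 0 counts, PTPRC at 1, PECAM1 at 8, ALB at 23 and DCN at 38 counts over all libraries, and COL1A1 was at 17.1 CPM in shCtrl and 31.8 CPM in shPRRC2B total RNA. The part of these levels in the results was not tested. The first polysome replicates stood apart over the table as a whole. The chi-square per degree of freedom between shCtrl polysome libraries was 53.7 and 75.2 for pairs with replicate 1. It was 22.3 for replicates 2 and 3. In shPRRC2B polysome RNA these values were 37.8, 37.4 and 13.8. A group of amino acid carriers was low in the first replicates, and values without them are given there and for some other members.

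More members lost than gained polysome association relative to their total RNA. Of the 146 members, 45 were TE-down and 11 were TE-up (adjusted p below 0.05, log2 change larger than 0.5 in size), against 16.4% TE-down and 10.7% TE-up among all 18166 genes tested. The TE-down members made up 30.8% of the members and the TE-up members 7.53%. SLC26A2, named beforehand for its TE change, is counted among the TE-down members. The median TE change was -0.37 for the members and -0.03 for all genes tested, and 97 members had a value below 0, beside 51.7% of all genes. Without the first polysome replicates of both lines, 59 members were TE-down and 14 TE-up, beside 22.0% and 14.9% of all genes. After a smooth trend with transcript length was removed from the changes, 30 were TE-down and 18 TE-up, beside 9.40% and 11.2% of all genes.

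Most TE-down members were called lower in polysome RNA. The TE change contains the polysome change, and the same split was not made for all genes, so it is a description. Of the 45 TE-down members, 34 were called lower in polysome RNA and not higher in total RNA, 3 of them also lower in total RNA. A further 5 were called higher in total RNA and not lower in polysome RNA, 5 showed both, and 1 showed neither. Of the 11 TE-up members, 5 were called higher in polysome RNA and not lower in total RNA, 4 were called lower in total RNA and not higher in polysome RNA, 2 of them lower in both, and 2 showed neither. In polysome RNA itself, 56 members were lower and 24 higher, against 21.4% and 18.4% of all genes, with a median change of -0.28 and -0.01 for all genes. In total RNA, 15 members were lower and 28 higher, against 14.1% and 14.9% of all genes, with a median of 0.10 and 0.04 for all genes. In bulk RNA, fewer cells of a type and less RNA per cell cannot be told apart. In polysome RNA the 3 libraries of shPRRC2B all lay below those of shCtrl for 51 members (21.5% of all genes) and above for 28 (21.6%), and the lines overlapped for 67. In total RNA the shPRRC2B libraries lay above for 58 members (34.1% of all genes), below for 46 (28.8%), and overlapped for 42.

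**Figure D1:**
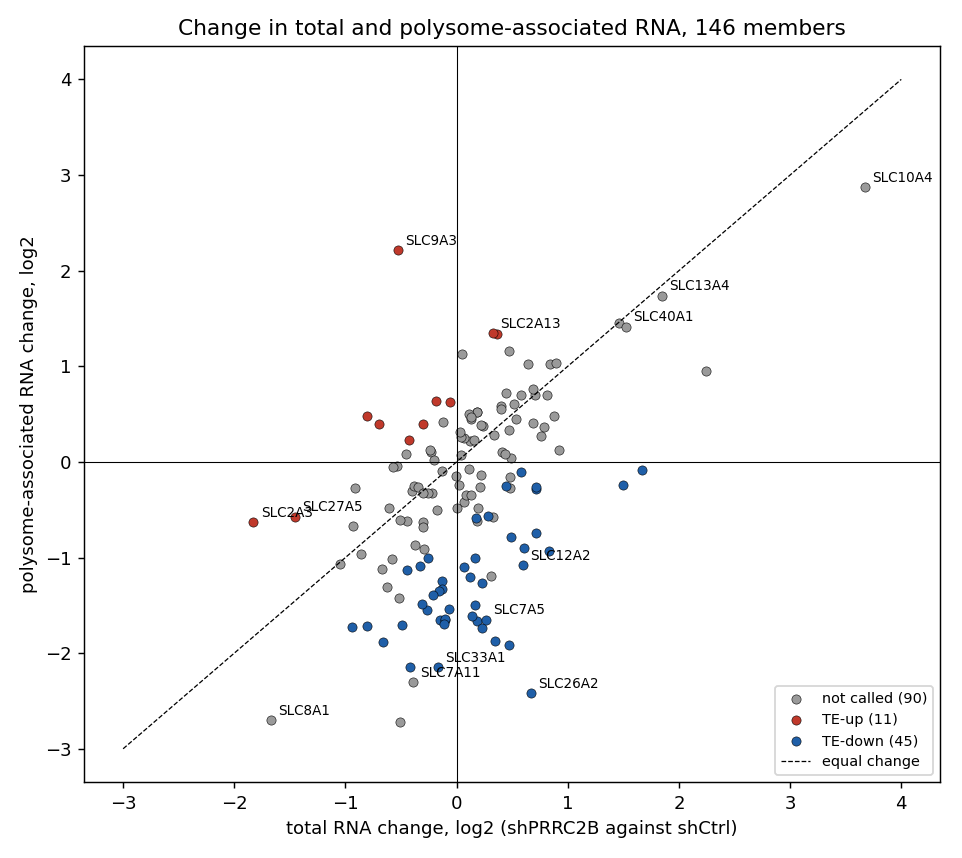
Change in total RNA (x axis) and in polysome-associated RNA (y axis) of each of the 146 members, both as log2 of shPRRC2B against shCtrl, coloured by TE call, with a dashed line of equal change. Most of the 45 TE-down members lie far below the dashed line at a total RNA change near 0, while SLC10A4 and SLC13A4 rose in both fractions.

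**Figure D2:**
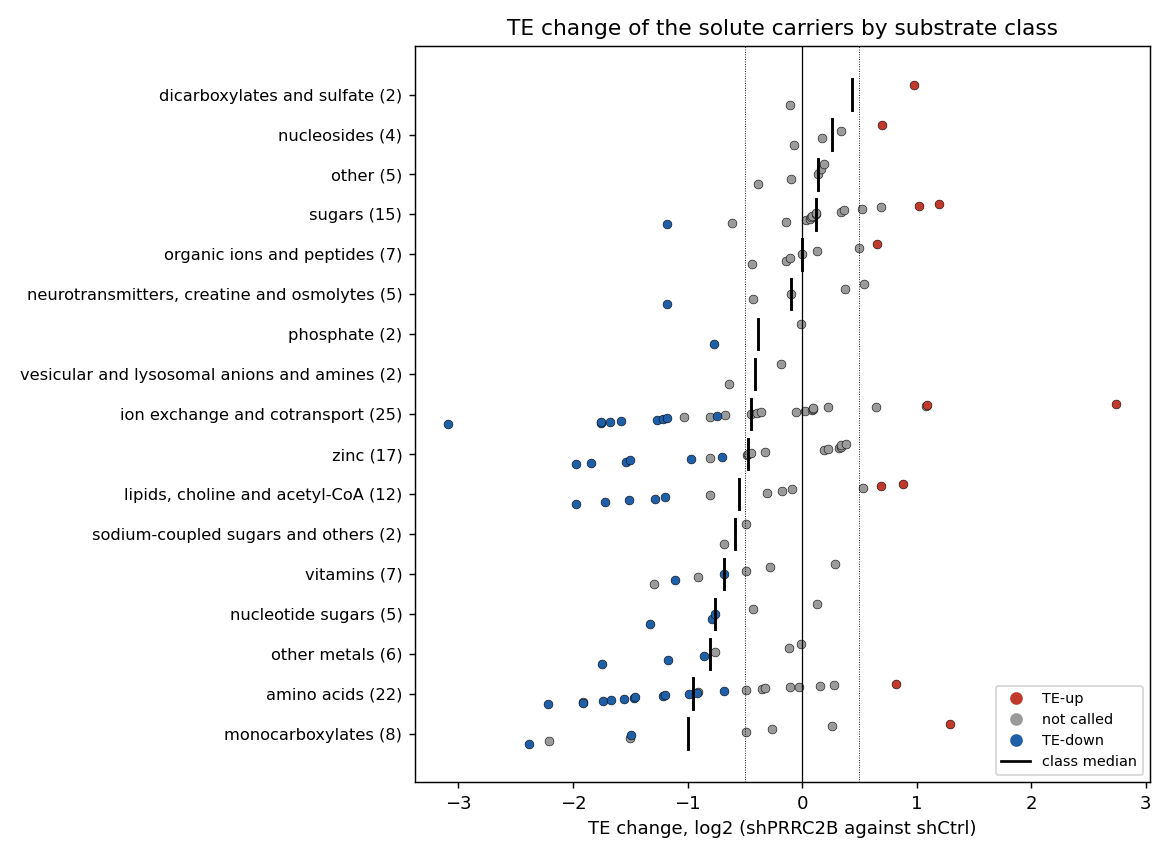
TE change (x axis, log2 of shPRRC2B against shCtrl) of the 146 members by substrate class, with the number of members of each class in brackets, the class median as a bar and dotted lines at changes of -0.5 and 0.5. The amino acid carriers have a median of -0.95, with 12 of 22 TE-down, and the sugar carriers one of 0.12.

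More amino acid carriers were lower than higher in polysome RNA. Of the 22 members of the class, 12 were TE-down and 1 was TE-up (54.5% and 4.55%), with a median TE change of -0.95. Polysome RNA was lower for 13 and higher for 4 (median -0.81), and total RNA was lower for 2 and higher for 5 (median 0.05). Among all genes 16.4% were TE-down and 10.7% TE-up. In polysome RNA 21.4% of all genes were lower and 18.4% higher, and in total RNA 14.1% and 14.9%. These shares stand beside each class, family and list count below, and a count near them is no result about the class. In the SLC7 family of cationic amino acid carriers and light chains, 5 of 7 were TE-down (median -1.74), and in the SLC38 family of sodium-coupled neutral amino acid carriers 5 of 7 were (median -1.20). Without the first polysome replicates of both lines 15 of the class were TE-down, and with the length trend removed 8 were.

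SLC7A5, the light chain that exchanges large neutral amino acids such as leucine and a main supplier of the mTORC1 pathway, had the highest mean CPM of all members in total RNA of both lines. Its total RNA was at 226, 244 and 220 CPM (TMM-scaled, as all CPM below) in shCtrl and at 281, 282 and 265 CPM in shPRRC2B, so that shPRRC2B lay above. In polysome RNA it was at 40.6, 145 and 134 CPM in shCtrl and at 24.2, 47.7 and 29.9 CPM in shPRRC2B. The lines overlapped there because the first shCtrl library was low. The TE change was -1.91 ± 0.44 (SE, adjusted p = 0.0044) and -2.16 without the first polysome replicates of both lines.

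SLC7A2, a cationic amino acid carrier, had polysome RNA at 10.8, 12.8 and 16.4 CPM in shCtrl and at 3.53, 3.92 and 3.42 CPM in shPRRC2B. Its total RNA was at 45.3 ± 1.3 CPM (SD, n = 3) in shCtrl and 57.5 ± 3.5 CPM in shPRRC2B. The polysome groups did not overlap, and the TE change was -2.22 ± 0.23 (SE, adjusted p = 1.11e-05).

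SLC38A2, the carrier of small neutral amino acids that cells raise under amino acid shortage, was at 42.0, 76.2 and 80.1 CPM in shCtrl polysome RNA and at 24.4, 26.7 and 18.8 CPM in shPRRC2B polysome RNA. Its total RNA was at 146 ± 3.3 CPM in shCtrl and 164 ± 4.0 CPM in shPRRC2B, and the TE change was -1.66 ± 0.26 (adjusted p = 0.00026). Its relative SLC38A1, a glutamine importer, was at 42.1, 65.0 and 72.3 CPM in shCtrl polysome RNA and at 19.3, 21.3 and 16.3 CPM in shPRRC2B, with a TE change of -1.55 ± 0.23 (adjusted p = 0.000174). For both genes all shPRRC2B polysome libraries lay below those of shCtrl.

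SLC38A9, the lysosomal carrier that senses arginine for mTORC1, moved in opposite directions in the fractions. Its total RNA rose from 13.2 ± 0.85 to 21.5 ± 0.55 CPM (log2 change 0.71, adjusted p = 0.00793). In polysome RNA it was at 14.4, 26.3 and 18.7 CPM in shCtrl and at 14.4, 10.5 and 10.3 CPM in shPRRC2B, a log2 change of -0.75 (adjusted p = 0.00619), although the first replicates of the lines were at about the same level. SLC38A6, an orphan relative with the intronic PAR-CLIP site, had a TE change of -0.35 (adjusted p = 0.324).

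The 9 carriers listed as amino acid response genes were all lower in polysome RNA. The list held SLC7A11, SLC7A5, SLC3A2, SLC7A1, SLC7A3, SLC1A4, SLC1A5, SLC38A2 and SLC6A9, and its median change was -1.50 in polysome RNA, beside -0.01 for all genes tested. In total RNA 1 of the 9, the arginine and lysine carrier SLC7A1, was called lower (-0.66, adjusted p = 0.0272) and none higher, with a list median of -0.38. By TE, 4 were called down and none up, beside 16.4% and 10.7% of all genes, and 21.4% of all genes were lower in polysome RNA. The polysome libraries of the lines did not overlap for 3 of the 9, SLC7A1, SLC7A3 and SLC38A2, and overlapped for the other 6. Among all genes the shPRRC2B polysome libraries lay below for 21.5% and above for 21.6%, and the lines overlapped for 56.9%.

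The first polysome replicates were low for these genes in both lines. In shCtrl the first replicate was the lowest of the 3 for 9 of 9 genes, at 23.6% to 55.2% of the mean of the others. In shPRRC2B it was the lowest for 8 of 9, at 6.63% to 107% of that mean. Over all 146 members the first replicate was the lowest for 66 in shCtrl and 61 in shPRRC2B, with a median of 92.3% and 95.8% of the others. Without both first polysome replicates all 9 were again lower in polysome RNA, and 7 were TE-down. Leaving out the third shCtrl polysome replicate left 7 of the 9 lower in polysome RNA. What set the first replicates apart was not tested.

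SLC7A11, the cystine and glutamate exchanger, shows this spread. It was at 6.93, 27.2 and 31.6 CPM in shCtrl polysome RNA and at 0.430, 8.31 and 4.66 CPM in shPRRC2B polysome RNA. Its TE change of -1.91 ± 0.70 missed the threshold (adjusted p = 0.0515), while the polysome change of -2.31 ± 0.54 passed (adjusted p = 0.00228). Without the first polysome replicates of both lines the TE change was -1.84 (adjusted p = 2.58e-05).

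SLC3A2, the heavy chain that carries the light chains to the cell surface and the member with 2 stretches of PAR-CLIP signal in its last exon, was also lower in polysome RNA. It was at 119, 197 and 235 CPM in shCtrl polysome RNA and at 114, 130 and 145 CPM in shPRRC2B, and total RNA was at 127 ± 8.6 and 112 ± 6.1 CPM. The polysome change of -0.50 ± 0.18 just passed the thresholds (adjusted p = 0.0318) and the TE change was -0.32 ± 0.25 (adjusted p = 0.369). Without the first polysome replicates of both lines the TE change was -0.52 (adjusted p = 0.00982), and without that of shCtrl alone -0.60 (adjusted p = 0.00786), both past the thresholds. Of the heavy chain and the 5 of its 6 listed light chains that were tested, 2 were TE-down. The light chain SLC7A6, which exchanges cationic for neutral amino acids, had a TE change of 0.15 (adjusted p = 0.668) and was higher in polysome RNA (0.55, adjusted p = 0.0186).

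SLC1A5, the glutamine exchanger known as ASCT2, was at 143, 278 and 289 CPM in shCtrl polysome RNA and at 66.3, 174 and 150 CPM in shPRRC2B. The lines overlapped, with the first replicate lowest in each. Its polysome change was -0.87 ± 0.27 (adjusted p = 0.0161) and its TE change -0.49 ± 0.38 (adjusted p = 0.365).

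**Figure D3:**
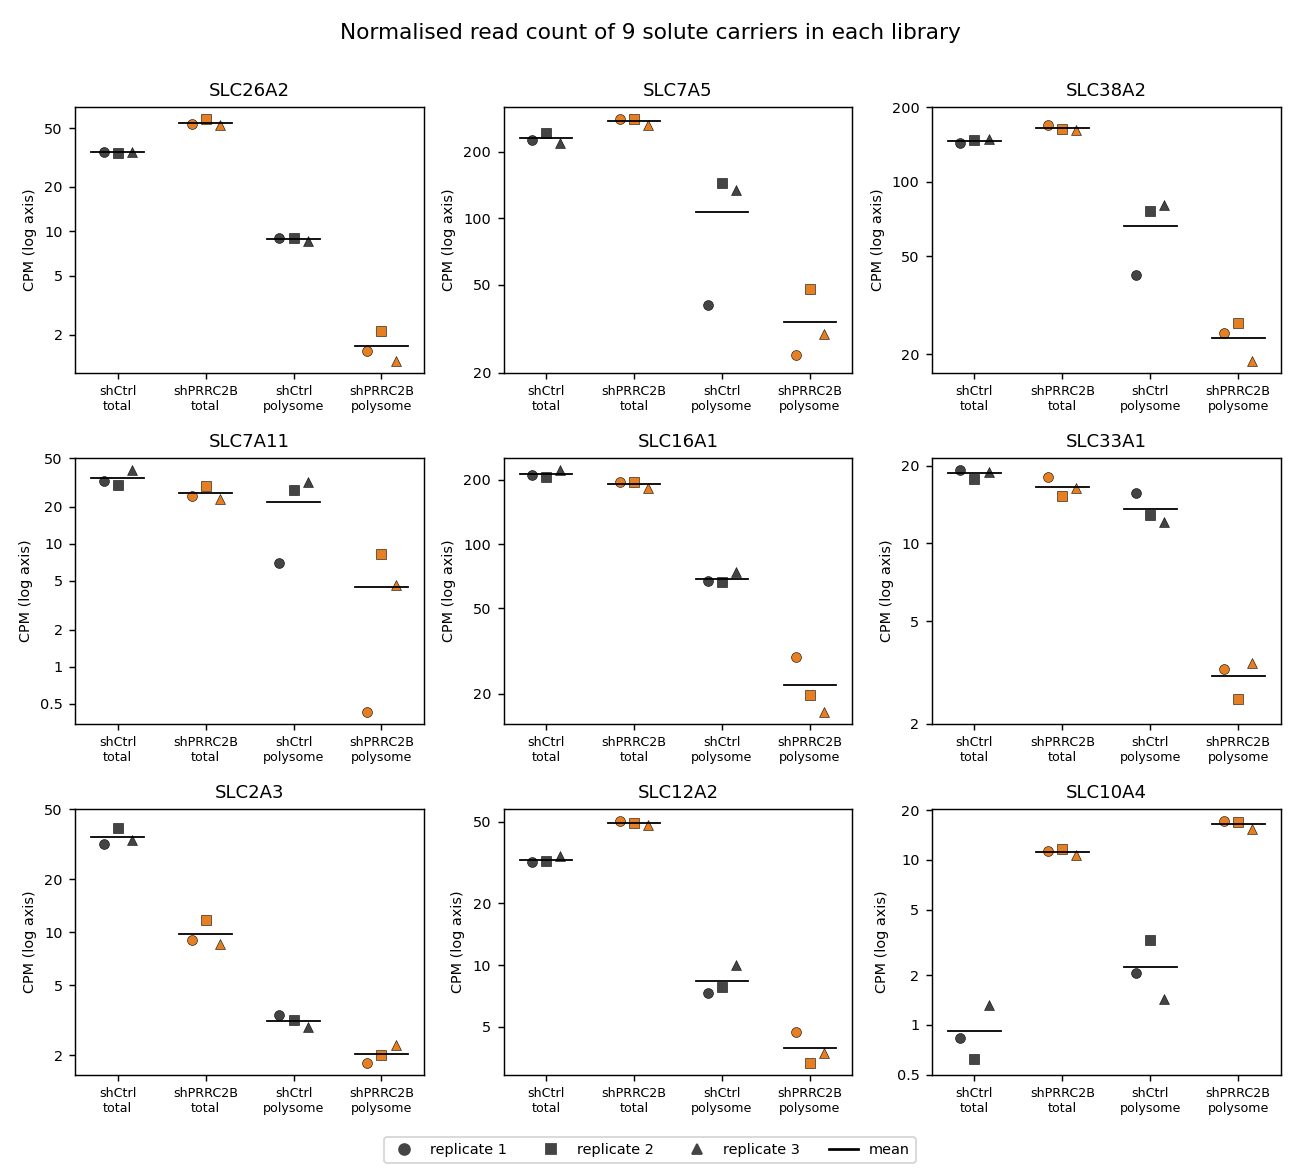
TMM-scaled CPM on a log axis of 9 named carriers in each library, grouped by line and fraction, with a symbol for each replicate and a bar at the mean of 3. SLC7A5, SLC38A2 and SLC7A11 have a low first shCtrl polysome replicate (40.6, 42.0 and 6.93 CPM), while SLC26A2, SLC16A1 and SLC33A1 show no overlap between the lines in polysome RNA.

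Monocarboxylate carriers of the SLC16 family moved in both directions. Of 8 members, 2 were TE-down and 1 was TE-up (25% and 12.5%, beside 16.4% and 10.7% of all genes), with a median TE change of -0.99. SLC16A1, which moves lactate and pyruvate with a proton and has a PAR-CLIP site in its coding sequence, was at 66.9, 66.4 and 73.9 CPM in shCtrl polysome RNA and at 29.7, 19.7 and 16.5 CPM in shPRRC2B. All shPRRC2B libraries were below, at a fold of 0.319 in polysome RNA, and total RNA was at 213 ± 8.4 and 191 ± 7.3 CPM. The TE change was -1.50 ± 0.22 (adjusted p = 0.000171).

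SLC16A4, a relative whose substrate is not settled, rose in TE by 1.29 ± 0.35 (adjusted p = 0.0104). Its total RNA fell from 8.53, 8.95 and 8.64 CPM to 4.53, 5.65 and 4.68 CPM, and its polysome libraries of the lines overlapped.

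Sugar carriers showed fewer TE-down calls than the members as a whole: of 15, 2 were TE-up and 1 TE-down, with a median of 0.12, and the difference from the other classes was not tested. SLC2A3, the glucose carrier GLUT3, fell in total RNA from 31.5, 39.3 and 33.2 CPM to 8.96, 11.7 and 8.57 CPM. In polysome RNA it went from 3.37, 3.15 and 2.88 CPM to 1.81, 2.01 and 2.28 CPM, so that both fractions were lower without overlap. The total change was -1.83 ± 0.17 (adjusted p = 5.48e-07), the polysome change -0.63 ± 0.24 (adjusted p = 0.0446), and the TE change 1.20 ± 0.30 (adjusted p = 0.00671). SLC2A3 has the near-identical copy SLC2A14, so that its counts are uncertain where read pairs could not be placed.

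SLC2A1, the widespread glucose carrier GLUT1, was at 84.4 ± 8.5 and 55.2 ± 5.2 CPM in total RNA of shCtrl and shPRRC2B (log2 change -0.61, adjusted p = 0.00358), with a TE change of 0.13 (adjusted p = 0.721). SLC2A13, the proton-coupled inositol carrier, rose in polysome RNA from 4.50, 4.56 and 4.44 CPM to 13.1, 8.50 and 12.7 CPM, with a TE change of 1.02 ± 0.26 (adjusted p = 0.00707). SLC37A4, which brings glucose 6-phosphate into the endoplasmic reticulum, was at 109 ± 5.3 and 119 ± 21 CPM in polysome RNA, with a TE change of 0.37 (adjusted p = 0.153).

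Carriers of inorganic ions include SLC26A2, which was named beforehand for its TE change and is counted among the TE-down members here. Of 25 members of the ion exchange and cotransport class, 9 were TE-down and 2 TE-up, with a median of -0.45. These are 36% and 8% of the class, beside 16.4% and 10.7% of all genes. SLC26A2, the sulfate exchanger needed to sulfate cartilage proteoglycans (chr5:149960758-149993455, plus strand), was at 34.4, 34.0 and 34.6 CPM in shCtrl total RNA and at 53.3, 57.7 and 52.8 CPM in shPRRC2B total RNA. In polysome RNA it was at 8.99, 9.01 and 8.65 CPM in shCtrl and at 1.55, 2.10 and 1.33 CPM in shPRRC2B. The lines overlapped in neither fraction and moved in opposite directions, to 1.59 and 0.187 of the shCtrl level, which is a TE change of -3.09 ± 0.23 (SE). Its exons overlap those of TIGD6, which limits how well reads there can be assigned.

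SLC12A2, the sodium, potassium and chloride cotransporter NKCC1, moved in the same directions. It was at 31.8, 32.3 and 34.1 CPM in shCtrl total RNA and at 50.4, 49.3 and 48.4 CPM in shPRRC2B total RNA. In polysome RNA it was at 7.31, 7.81 and 9.98 CPM against 4.73, 3.34 and 3.71 CPM, with a TE change of -1.67 ± 0.23 (adjusted p = 8.64e-05). Neither fraction overlapped between the lines.

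SLC9A5, a sodium and proton exchanger, fell in total RNA from 20.3 ± 4.2 to 12.5 ± 0.88 CPM and had a TE change of 1.09 ± 0.35 (adjusted p = 0.0278), a call that ended under 7 of 21 alternatives. SLC9A3, of the same family and named here after its values were seen, had the highest TE change at 2.74 ± 0.80, but on shCtrl polysome levels of 0.281, 0 and 0.222 CPM.

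SLC8A1, the sodium and calcium exchanger NCX1, was lower in both fractions. Its total RNA was at 16.3, 15.8 and 19.2 CPM in shCtrl and at 5.74, 5.69 and 4.63 CPM in shPRRC2B. Its polysome RNA was at 3.28, 5.10 and 4.44 CPM in shCtrl and at 0.0860, 0.478 and 1.43 CPM in shPRRC2B. The changes were -1.67 ± 0.29 (adjusted p = 0.000353) and -2.70 ± 0.45 (adjusted p = 0.000125), and the TE change of -1.03 ± 0.55 missed the threshold (adjusted p = 0.179).

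Of the 17 zinc carriers, 6 were TE-down (35.3%) and none was TE-up, beside 16.4% and 10.7% of all genes, with a median TE change of -0.47. SLC39A14, which imports zinc, iron and manganese, was at 17.1, 33.5 and 27.3 CPM in shCtrl polysome RNA and at 9.89, 5.64 and 7.61 CPM in shPRRC2B. The groups did not overlap, total RNA was at 64.8 ± 0.22 and 76.1 ± 7.0 CPM, and the TE change was -1.97 ± 0.29 (adjusted p = 0.000154). SLC30A1, the zinc exporter of the plasma membrane, was at 20.4, 14.4 and 9.54 CPM against 11.6, 14.3 and 9.13 CPM in polysome RNA, with overlap and a TE change of -0.48 (adjusted p = 0.267). The importers SLC39A3 and SLC39A4 stood on the other side, with TE changes of 0.34 (adjusted p = 0.224) and 0.39 (adjusted p = 0.329). Without the first polysome replicates of both lines SLC39A4 was called TE-up (0.78, adjusted p = 0.000737). SLC39A7, the zinc channel of the endoplasmic reticulum, was listed at 0 counts in the table and is no member.

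Among the 6 carriers of other metals, 3 were TE-down and none was TE-up. All 6 values were below 0 (median -0.81), beside 51.7% of all genes below 0. SLC11A2, the divalent metal importer DMT1 that takes up iron, was at 24.4, 31.1 and 41.4 CPM in shCtrl polysome RNA and at 22.2, 19.8 and 23.3 CPM in shPRRC2B, with a TE change of -0.85 ± 0.23 (adjusted p = 0.0104) that lost its call with the length trend removed (-0.53, adjusted p = 0.105). SLC40A1, the iron exporter ferroportin, rose in both fractions, from 2.79 ± 0.23 to 8.02 ± 1.2 CPM in total RNA and from 3.48 ± 1.3 to 9.35 ± 3.8 CPM in polysome RNA, and its TE change was -0.11 (adjusted p = 0.891). SLC41A3, a magnesium carrier of the SLC41 family, fell in both fractions to 0.483 and 0.479 of the shCtrl level, with a TE change of -0.01 (adjusted p = 1.00).

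Of the 12 carriers of lipids, bile acids, choline and acetyl-CoA, 5 were TE-down and 2 TE-up, with a median of -0.55. SLC33A1, which brings acetyl-CoA into the endoplasmic reticulum, was at 15.7, 12.9 and 12.1 CPM in shCtrl polysome RNA and at 3.27, 2.48 and 3.42 CPM in shPRRC2B. Total RNA overlapped, at 18.7 ± 0.82 and 16.6 ± 1.4 CPM, and the TE change was -1.98 ± 0.25 (adjusted p = 4.75e-05). SLC27A5, a bile acid-CoA ligase of the fatty acid transport protein family, fell in total RNA from 6.41, 8.40 and 7.46 CPM to 2.15, 2.83 and 3.10 CPM. Its polysome libraries overlapped, and its TE change was 0.88 ± 0.31 (adjusted p = 0.0397), a call that ended under 11 of 21 alternatives.

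SLC10A4, an orphan relative of the bile acid carriers found in neurons, had the largest rise of the members in both fractions. Total RNA went from 0.830, 0.621 and 1.31 CPM to 11.3, 11.7 and 10.7 CPM, and polysome RNA from 2.06, 3.26 and 1.44 CPM to 17.2, 16.9 and 15.4 CPM. The log2 changes were 3.67 ± 0.28 (adjusted p = 6.41e-08) and 2.87 ± 0.27 (adjusted p = 4.88e-07), and the TE change was -0.80 (adjusted p = 0.144). SLC10A7, a relative that acts in skeletal development and was picked here after its values were seen, was called up in total RNA and down in polysome RNA, at a TE change of -1.51.

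The sulfate carrier SLC13A4 also rose without a change in its ratio. It went from 9.47 ± 0.70 to 34.2 ± 1.1 CPM in total RNA and from 16.9 ± 1.2 to 56.4 ± 2.0 CPM in polysome RNA, with a TE change of -0.11 (adjusted p = 0.703). SLC13A3, which takes up dicarboxylates such as succinate, was at 17.8, 9.01 and 10.1 CPM in shCtrl polysome RNA and at 28.0, 33.5 and 32.4 CPM in shPRRC2B. Its TE change was 0.98 ± 0.30 (adjusted p = 0.0218), and that call ended under 7 of 21 alternatives. SLC22A31, an orphan of the organic ion family, was higher in polysome RNA by 1.45 ± 0.29 (adjusted p = 0.000524) and by nearly the same value of 1.46 in total RNA.

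The smaller classes were as follows. Of 5 nucleotide sugar carriers of the Golgi, 3 were TE-down (median -0.76). SLC35A4, a member of that family with a PAR-CLIP site of fragment P2 in its coding sequence, rose in total RNA from 63.7 ± 2.2 to 110.0 ± 1.5 CPM (log2 change 0.79, adjusted p = 0.000496) and had a TE change of -0.43 ± 0.20 (adjusted p = 0.133), which was -0.77 (adjusted p = 0.000119) without the first polysome replicates of both lines. Of 7 vitamin carriers, 2 were TE-down (28.6%, beside 16.4% of all genes). The folate carrier SLC19A1 was lower in every shPRRC2B polysome library, at 23.4 ± 2.1 against 32.7 ± 1.9 CPM, and its TE change of -0.49 (adjusted p = 0.0405) stayed short of the change of 0.5 asked for. It was called under 7 of 21 alternatives and was at -0.04 (adjusted p = 0.898) with the length trend removed.

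Of both phosphate carriers, SLC20A1, which also serves as a retrovirus receptor, was TE-down (-0.77 ± 0.16, adjusted p = 0.00179), with polysome RNA at 80.7 ± 5.5 and 53.6 ± 2.9 CPM. Of 4 nucleoside carriers none was TE-down and 1 was TE-up, and the equilibrative carrier SLC29A1 had a TE change of -0.07 (adjusted p = 0.82). The organic ion and peptide class had 1 TE-up member of 7 and none TE-down, and the SLC6 class of neurotransmitter, creatine and osmolyte carriers had 1 TE-down of 5. The 2 carriers of the SLC5 family, the 2 vesicular and lysosomal carriers and the 5 members of the other families held no TE call.

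Levels per length, as mean CPM per kb of transcript over the total and polysome libraries together, were highest for SLC50A1, a sugar efflux carrier, at 101. SLC3A2 followed with 73.3, SLC39A3 with 68.7, SLC1A5 with 63.1, SLC39A4 with 50.8 and SLC37A4 with 45.0 CPM per kb. SLC50A1 was concentrated in polysome RNA, at 227, 174 and 166 CPM in shCtrl and 255, 252 and 280 CPM in shPRRC2B, against 35.0 ± 2.8 and 38.4 ± 0.80 CPM in total RNA. None of these 6 carriers was called by TE. The order rests on both fractions: in total RNA alone, over both lines, SLC3A2 was highest with 63.6 CPM per kb, SLC1A5 followed with 62.5, SLC7A5 with 55.5 and SLC16A1 with 53.9, while SLC50A1 was at 28.3 CPM per kb, and of these SLC7A5 and SLC16A1 were TE-down. In CPM, the median member was at 22.6 in shCtrl total RNA, 14.4 in shCtrl polysome RNA, 22.3 in shPRRC2B total RNA and 10.1 in shPRRC2B polysome RNA.

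Within each line, before the length trend was removed, more members were depleted from polysome RNA than enriched in it. In shCtrl 72 members were lower and 33 higher in polysome than in total RNA, against 39.8% and 32.5% of all genes, with a median log2 ratio of -0.55 beside -0.22. In shPRRC2B 90 were lower and 29 higher, against 42.3% and 36.6% of all genes, with a median of -1.04 beside -0.22. These ratios are relative to the scaling of the libraries. Under scaling by total counts the median of all genes moved to -1.22 in shCtrl and -1.16 in shPRRC2B, and the split of members became 111 lower and 10 higher in shCtrl and 114 lower and 10 higher in shPRRC2B. In the ion exchange and cotransport class 23 of 25 were depleted in each line. The 3 members of the SLC66 family, lysosomal and related carriers with short mRNAs, were enriched in both lines. With the length trend removed, the median log2 ratio in shCtrl was 0.031 for the members and -0.044 for all genes. In shPRRC2B it was then -0.066 for the members and 0.016 for all genes.

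**Figure D4:**
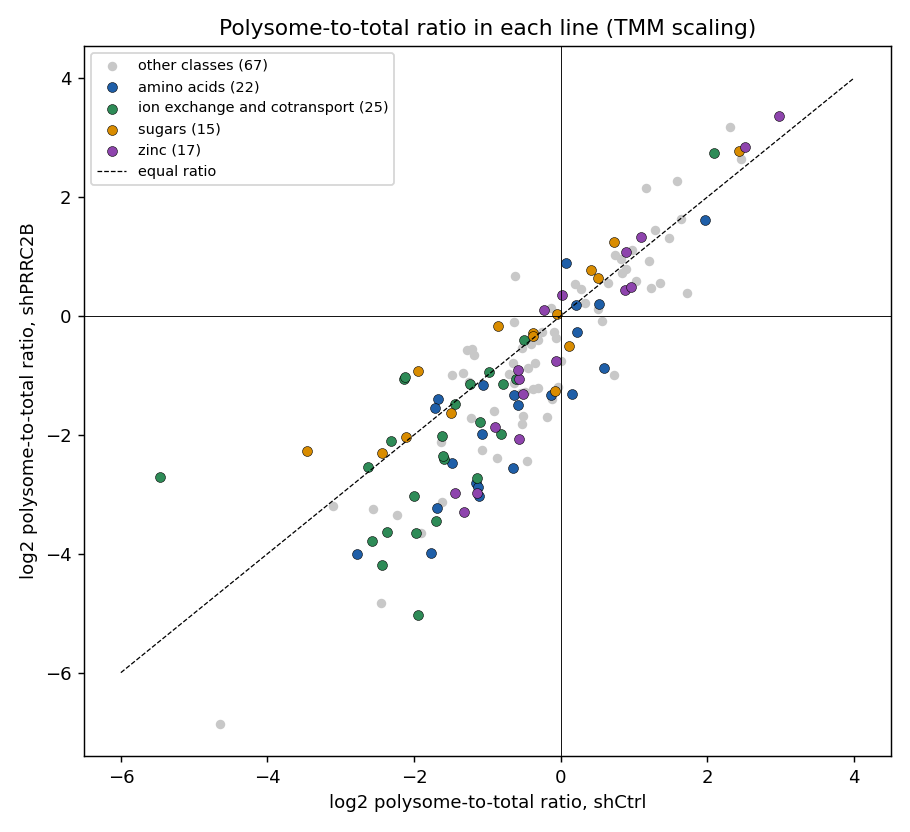
Log2 polysome-to-total ratio under TMM scaling of the 146 members in shCtrl (x axis) and shPRRC2B (y axis), with 4 classes coloured and a dashed line of equal ratios. Many amino acid carriers lie below the line, with a class median of -0.85 in shCtrl and -1.45 in shPRRC2B, whereas the sugar carriers had medians of -0.37 and -0.34.

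In 5 members total RNA was called higher and polysome RNA lower (1.63% of all genes). Among them were SLC26A2, named beforehand, the textbook carriers SLC12A2 and SLC38A9, and SLC10A7, picked after its values were seen. No member showed the reverse (0.727% of all genes). Calls in the same direction in both fractions were made for 12 members that rose (6.55% of all genes) and 11 that fell (6.36%).

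TE changes of the members varied with features of their mRNAs. Over the 146 members the Spearman correlation of the TE change was -0.287 with transcript length, -0.25 with 3′ UTR length, -0.068 with coding length and 0.42 with the GC content of the coding sequence, given as descriptions over genes that share libraries. Transcript length and coding GC were themselves related among members (-0.397). Over 13609 genes with a coding sequence the same values were -0.417 for transcript length and 0.266 for coding GC. The median canonical transcript was 3925 nt for members and 3039.5 nt for all genes tested.

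By transcript length, the 49 shortest members held 5 TE-down and 5 TE-up, the 48 of middle length 19 and 3, and the 49 longest 21 and 3. Among all genes in the same length ranges the TE-down shares were 6.12%, 24.4% and 38.7%, beside 10.2%, 39.6% and 42.9% of the members. By coding GC, the 49 members lowest in GC, from 36.8% to 48.7%, held 29 TE-down and 2 TE-up, with a median TE change of -1.03. The 48 in the middle held 10 and 5, and the 49 highest, up to 70.9%, held 6 and 4. The TE-down shares of all genes in these GC ranges were 30.9%, 19.8% and 9.58%, beside 59.2%, 20.8% and 12.2% of the members. The TE-down members had a median coding GC of 47.9%, the TE-up members one of 58.0% and the members without a TE call one of 57.8%. Over all genes with a coding sequence these medians were 47.7%, 58.2% and 53.8%. Whether GC, length or a feature that goes with them underlies these values was not tested.

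**Figure D5:**
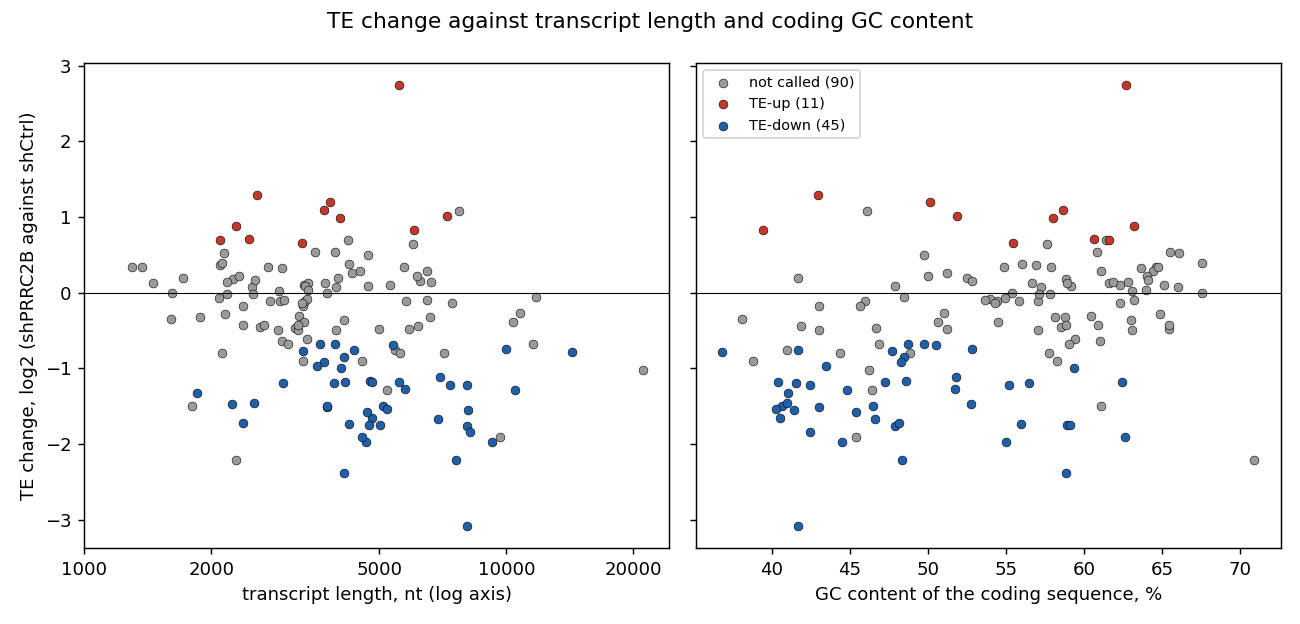
TE change (log2 of shPRRC2B against shCtrl) of the 146 members against the length of the canonical transcript on a log axis (left) and the GC content of its coding sequence in percent (right), coloured by TE call. Most TE-down members lie at low coding GC, with 29 of 45 in the lowest range of 36.8% to 48.7%.

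Other membrane transporters gave different counts under the same thresholds for a call. The minimum of summed raw counts asked of the members was not applied to these lists, and 40 SLC25 genes reached it. The lists therefore hold genes of low level, such as SLC25A32 at a mean of 0.36 CPM and ABCA8 at 0.47 CPM. Their counts are not on equal terms with those of the members. Of 42 SLC25 mitochondrial carriers tested, 4 were TE-down and 9 TE-up, with a median of 0.22. Of 18 P-type ATPases, which pump ions with ATP, 11 were TE-down and none TE-up (median -1.17), and of 30 ABC transporters 7 and 1 were (median -0.63). Other genes with carrier-type names (SLC35B to SLC35G, SLCO and MFSD) had 7 TE-down and 4 TE-up of 43 (median -0.04). Of the carrier companions BSG, EMB, MMGT1 and ATP1B1, 3 were TE-down. BSG, the chaperone that takes SLC16A1 to the surface, had a TE change of -0.37 (adjusted p = 0.193).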

How the data were processed

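Total and polysome-associated RNA of both HEK293T lines were sequenced in 12 libraries. The authors deposited raw counts of read pairs per gene name, made per the submitters' processing notes and methods with Trimmomatic 0.36, HISAT2 and featureCounts (Subread 2.0.1) on GRCh38 and GENCODE 38. No strand option is given in the methods, and 21 of the 39 named members share an exon with another gene. Library totals were 9855734 to 20837542 counts.

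Counts were fitted over all genes in R 4.3.3 with edgeR 4.0.16 (filterByExpr with a minimum count of 10, TMM over all libraries, glmQLFit and glmQLFTest, 4 groups of line and fraction, no block). P-values were adjusted by the Benjamini-Hochberg method over the 18166 genes tested, and a call needed an adjusted p below 0.05 and a log2 change larger than 0.5 in size. Errors are SDs over 3 replicates or SEs of the fit. A run of the fit on simulated counts with 200 changed genes was a check of the code only. The simulation held no general difference between fractions and no replicates that deviate together, so it cannot bear on the calls here. Alternatives were DESeq2 1.42.0, other scalings and filters, replicate blocks, a length trend removed by lowess and each library left out. Leaving out both first polysome replicates was chosen after seeing the data.

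Members and lists were chosen with earlier results of these data known. Named members were SLC26A2, those with PAR-CLIP sites, the 6 largest TE rises and falls and the 4 largest changes in each fraction among called members with at least 5 CPM, the 6 with the highest CPM per kb, and textbook carriers. Sites were read from the study's PAR-CLIP tables for position only, and lengths from GENCODE 44 canonical transcripts, which matched all 146 members. Some members that meet these rules are not reported here.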

Additional observations from a re-analysis of the deposited data

Results flagged for a closer look

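The contrast between the lines went in opposite directions in total and polysome RNA for 5 members, each called higher in total RNA and lower in polysome RNA. The TE change is the polysome change less the total RNA change, so calls in opposite directions fix its sign in advance. Its size is given as a description. Of the members given here, the TE change was -1.51 for SLC10A7, -1.67 for SLC12A2 and -1.46 for SLC38A9. For SLC26A2, named beforehand for this change, it was -3.09, given without a test.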

How the results depend on the processing

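Over all alternatives the members had more TE-down than TE-up calls, while TE-down calls took 8.52% to 22.0% of all genes. TE-down members numbered 29 with the length trend removed and a replicate block, 30 with the length trend removed, 51 with DESeq2, 48 with size factors or with no filter, 42 with scaling by total counts, and 39 to 58 with 1 library left out, the highest without the first shCtrl polysome replicate. Of the 45, 27 were past the thresholds in all 21 settings. TE-up members numbered 18 with the length trend removed and 7 to 12 with 1 library left out; each of the second shCtrl polysome, the first shPRRC2B total and replicates 2 and 3 of shPRRC2B polysome RNA left 7. Within lines, scaling by total counts gave 10 enriched and 111 depleted members in shCtrl and 10 enriched in shPRRC2B. Removing the length trend gave 34 depleted in shCtrl, and 44 enriched and 53 depleted in shPRRC2B. With a replicate block added these were 34, 44 and 52. Among all genes with the length trend removed, 30.8% were depleted in shCtrl, and 35% were enriched and 34.2% depleted in shPRRC2B. Over all genes tested, same-numbered libraries did not deviate together (correlations from -0.06 to 0.05), and the numbers were not taken as pairs. The first polysome replicates of both lines were nevertheless low for the amino acid response carriers. The correlations cannot tell whether same-numbered libraries share a culture or a batch. A replicate block alone gave 46 TE-down and 10 TE-up. Among the named members, the TE changes that turned sign belonged to members without a TE call. Outside the named members, the TE-down SLC35A3 and SLC9A7 turned sign with the length trend removed. They went to 0.13 (adjusted p = 0.689) and 0.08 (adjusted p = 0.865) and lost their calls. SLC22A31 was at 0.0508 with scaling by total counts, 0.194 without both first polysome replicates and from -0.33 to 0.14 with 1 library left out. SLC2A1 was at -0.054 without both first polysome replicates and from -0.0276 to 0.26 with 1 library left out. SLC30A1 was at 0.0623 and 0.0886 and SLC40A1 at 0.0553 and 0.0471 with the length trend removed, without and with a replicate block, and SLC40A1 at from -0.49 to 0.21 with 1 library left out. SLC41A3 was at 0.0345 with scaling by total counts, 0.0057 without both first polysome replicates and from -0.24 to 0.18 with 1 library left out. Depth limits members with few polysome counts, such as SLC9A3 and SLC8A1.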
